A study of Oryza sativa with 9 samples.

Results

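The expression baseline of unstressed wild-type rice leaf was described from 3 Affymetrix GeneChip arrays, out of 9 arrays in the series. The 3 arrays were chosen by their genotype label, normal wild type (WT), and no measured value was used in the choice. The other 6 arrays, 3 labelled OE and 3 labelled RNAi for the high mobility group gene OsHMGB707, enter only 1 count of spread in the closing section. The WT plants were rice (Oryza sativa) seedlings of 21 days. The study's methods name the japonica cultivar Zhonghua11 and RNA from pooled seedlings for each biological replicate. The WT plants carried no construct and received no stress treatment. Liquid culture in a growth chamber, with hygromycin for the germination of transgenic seeds but not of WT seeds, stands in the methods under the stress experiments and is not repeated there for the arrays. The labels give leaves as the tissue, whereas the methods speak of harvested seedlings, so marker genes of other organs were examined below. The sources used here do not state the hour of harvest.

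A leaf blade spends much of its transcription on the chloroplast. Nuclear genes encode the small subunit of Rubisco, which fixes carbon dioxide, the light-harvesting chlorophyll proteins and several carriers of the electron transport chain, and their products are imported into the plastid. Growth in a grass leaf is confined to a zone near its base, where cells divide, elongate and lay down cellulose, so RNA of a whole young leaf also carries messages of the division and wall machinery. Stress, hormone and transport genes often form large families in which some members serve the leaf and others the root, the flower or the seed.

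Each array gave 1 value per probe set, a group of short probes designed against the same transcript. Values are on the log2 scale after RMA, a procedure that corrects background, equalises the distributions of the arrays and summarises the probes of a set, so a difference of 1 is 2-fold. The array medians were 5.91, 5.89 and 5.89. After 187 control and reporter probe sets were set aside, 57194 probe sets were ranked by the mean of the 3 arrays. These means ran between 2.61 and 14.49, with a lower quartile of 4.34, a median of 5.89 and a 90th percentile of 10.10. Bands were set from these limits, with high for means in the top 10%, near the floor for means under the lower quartile, and middle for the rest. A probe set's value depends on how well its own probes hybridise, so a band gives the place of a probe set on the array and no order of transcript abundance between genes is read from it.

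The array also carries 64 probe sets for reporter and selection genes, which have no target in wild-type rice, and these gave the level to which unmatched probes read. Their median was 3.89, and 42 of the 64 lay under the lower quartile of the rice probe sets. Their 95th percentile was 6.32 and their highest mean 6.47. The value of 6.32 corresponds to percentile 55.5 of the rice probe sets, so 31748 rice probe sets lay at or under it and 25446 above it. Much of the middle band therefore overlapped the readings of probes without a target.

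**Figure D1:**
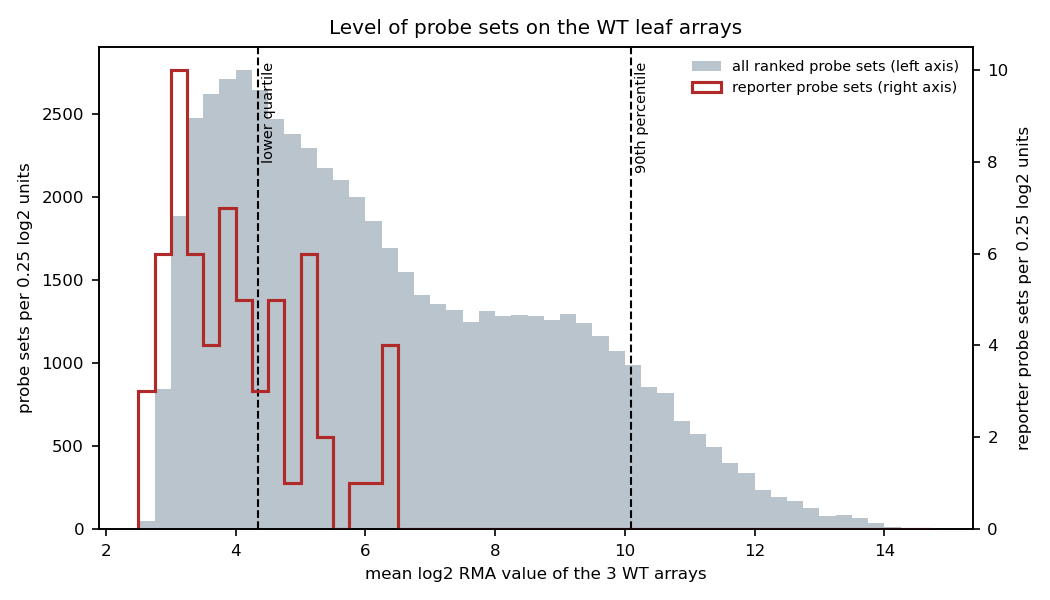
Distribution of probe set means over the 3 WT arrays (x axis, log2 RMA value; grey bars, number of ranked probe sets per bin on the left axis; red outline, 64 reporter probe sets on the right axis), with the band limits at 4.34 and 10.10 as dashed lines. The reporter probe sets ended at 6.47, well under the high band.

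The platform annotation gave a single gene for 22436 of the ranked probe sets, which came to 17905 genes, and 2457 of these had a gene name beyond their locus number. A gene was placed by its probe set of highest mean. On this rule 4432 genes (24.8%) were high, 12231 middle and 1242 (6.94%) near the floor, and the median gene stood at percentile 78.5 of all probe sets. Genes with an annotation thus stood higher than probe sets at large, and every list below is read against that median. Among the 2457 named genes 897 (36.5%) were high. Where a gene had several probe sets, which was so for 3444 genes, the highest and the lowest differed by a median of 2.09. In 122 of these genes 1 probe set was high and another near the floor.

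The 3 pools placed genes alike. Of the 4432 high genes, 4219 were high on each of the 3 arrays taken alone, and of the 1242 genes near the floor 1132 were near the floor on each. The median SD of a probe set was 0.0817, and 96.5% of probe sets spread over less than 0.5 between the pools. Each pool was measured on 1 array, so differences between plants and differences between hybridisations cannot be told apart.

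The highest mean among named genes was that of GOS2. This homologue of a translation initiation factor read 14.32, 14.30 and 14.29 in pools 1, 2 and 3. LIR1, a light-induced chloroplast protein, averaged 14.18. The Rubisco small subunit gene RBCS read 14.19, 14.14 and 14.21, and CAB2R, a chlorophyll a/b binding protein, read 14.20, 14.11 and 14.12. PETE, which encodes plastocyanin, averaged 14.13, the light-harvesting gene LHCP 14.03, and rca, which encodes Rubisco activase, 13.90. All of these stood at or above percentile 99.9, and for each the pools differed by less than 0.1. LIR1, RBCS, CAB2R, PETE and rca were placed by probe sets of a type that can match several transcripts.

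The other members of the 20 named genes of highest mean included the lipid transfer protein LTP2-B (14.10), the HSP90 class chaperone HSP81-3 (14.05), the catalase catA (14.03), the tonoplast aquaporin TIP1-1 (13.93) and the phenylalanine ammonia-lyase PAL (13.89). The metallothionein MT-1 averaged 13.86, the tumour protein homologue TCTP 13.83, the elongation factor REFA1 13.80 and the small GTPase ARF 13.79. ALDP, a chloroplast aldolase, averaged 13.78, the protease inhibitor OC-I 13.71, the malic enzyme NADP-ME2 13.68 and the S-adenosylmethionine synthetase SAM1 13.65. Of these other members, all but MT-1 and ARF were placed by probe sets of a type that can match several transcripts. The 100 probe sets of highest mean lay at or above 13.57 and none had an SD over 0.139. Only 31 of these 100 had a named gene, and 77 had a listed gene of any kind.

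OsHMGB707, the gene altered in the other lines of the series (LOC4336676, chromosome 4), was itself among the high genes of normal leaf. It encodes a chromatin protein with a DNA-bending HMG box. The probe set given for it in the study's own annotation read 12.39, 12.38 and 12.38, which is percentile 98.8 on each array. A further probe set listed for the gene read 6.93, 6.48 and 6.33, at percentile 58.6 of the means. The band of this gene thus rested on which probe set was taken.

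The photosynthesis list held 12 genes with a probe set, of which 10 were high, 1 was in the middle band and 1 near the floor. Its median percentile was 99.7, against 78.5 over all genes. Besides the genes above, petC, which encodes the Rieske iron-sulphur protein of the cytochrome complex, averaged 13.38. PSAH and PSAG1, subunits of photosystem I, averaged 13.26 and 11.37, and the leaf ferredoxin-NADP reductase LFNR1 averaged 12.12. The exception was RBCS1, a separate Rubisco small subunit gene, at 3.29, 2.82 and 3.11. RBCS1 had a single probe set, and the 4 probe sets of RBCS itself reached down to a mean of 4.91.

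Chlorophyll synthesis and breakdown genes followed, with 12 of 15 high and a median percentile of 96.4. GLK2 and GLK1, transcription factors for chloroplast development, averaged 11.99 and 11.63. The protochlorophyllide reductase PORB read 12.02, 11.83 and 11.84, whereas PORA, the form known for etiolated tissue, read 10.90, 10.41 and 10.75 and was also high. SGR and NYC1, which act in chlorophyll breakdown, averaged 11.62 and 10.98. Of the 3 subunits of magnesium chelatase CHLH was high at 11.34, and CHLD, at 10.11, was high on the border of that band. CHLI was in the middle band at 5.81, 5.87 and 5.81. CHLI was the 1 gene of this list at or under the reporter level of 6.32.

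Marker genes of other organs lay lower. Seed storage proteins and seed allergens gave no high gene among 11, with 7 in the middle band and 4 near the floor, and 9 of the 11 read at or under 6.32. The glutelins GLUA3 and GLUD-1 averaged 2.98 and 3.36, while GLUA2 read 9.38, 9.38 and 9.43. The 2 probe sets of GLUA2 disagreed, the other averaging 6.31. Of 23 genes for flower organs and meiosis, none was high, 7 were near the floor and 18 read at or under 6.32. The meiosis gene PAIR1 averaged 3.66, the stamen gene MADS3 3.39 and the tapetum lipid transfer gene C6 3.41, whereas MADS16, a lodicule and stamen identity gene, read 8.70, 8.69 and 8.67. GAMYB, PAIR2, MADS4 and MSP1 also lay above 6.32, at 8.10, 7.89, 6.90 and 6.65.

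Root genes were also examined because the methods speak of seedlings. None of 8 was high, 7 were in the middle band and 1 was near the floor, with a median percentile of 54.3. The manganese transporter NRAMP5, the silicon channel Lsi1, the iron transporter IRT1 and the nitrate transporter NRT2.3 averaged 8.14, 7.94, 7.73 and 6.75, each above the reporter level. The silicon exporter Lsi2 read 4.32, 4.60 and 4.21, the root meristem gene WOX5 averaged 5.34, and the phosphate transporter PT11, known from mycorrhizal roots, averaged 3.83. Whether root tissue had a part in the first 4 values was not tested.

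**Figure D2:**
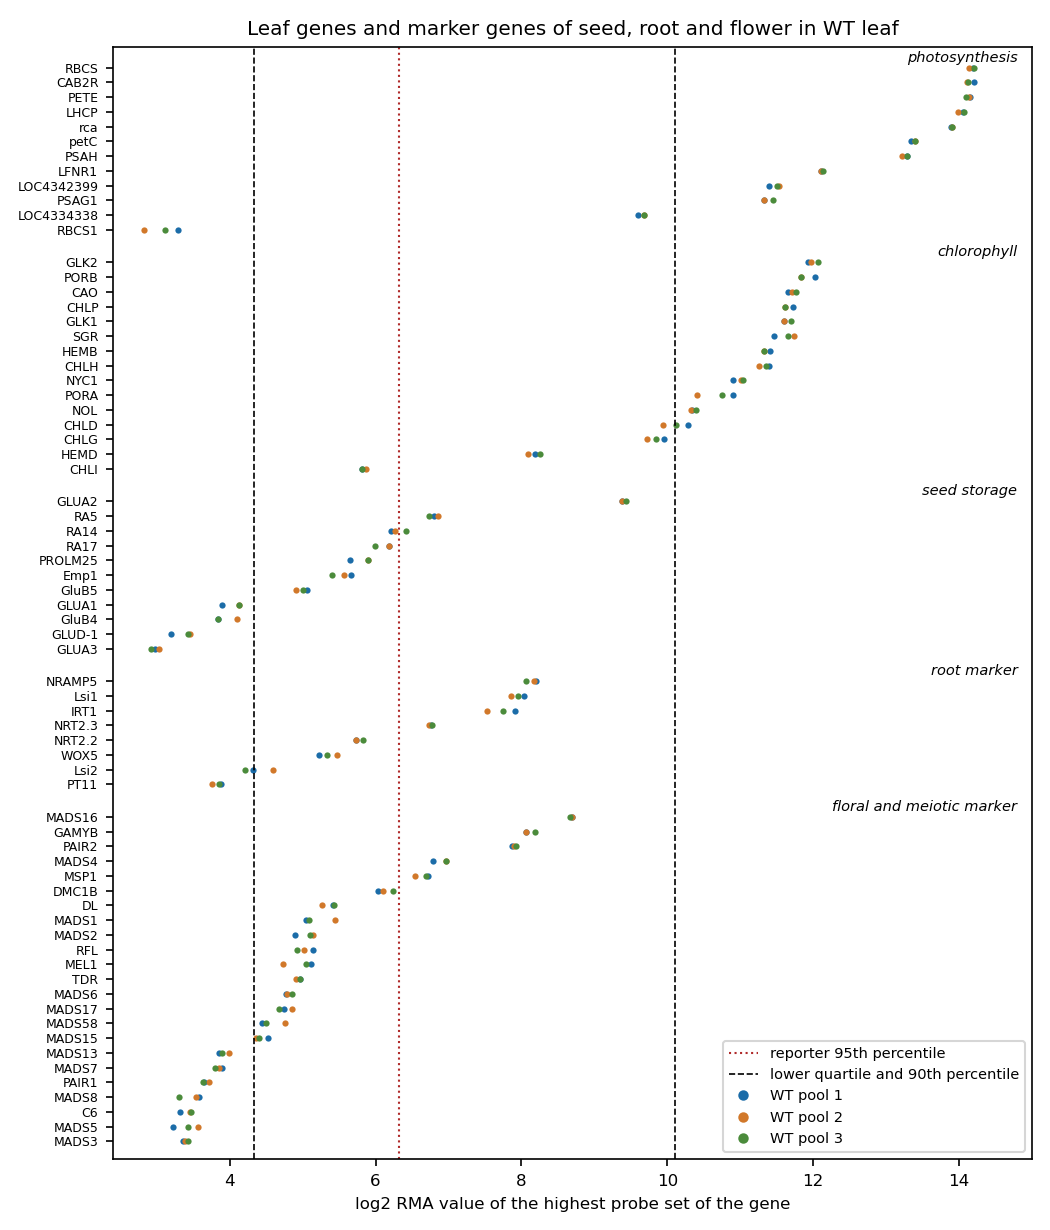
Values of the 3 WT pools (coloured points; x axis, log2 RMA value of the gene's highest probe set) for photosynthesis and chlorophyll genes and for marker genes of seed, root and flower, with the band limits dashed and the reporter 95th percentile of 6.32 dotted. Photosynthesis genes other than RBCS1 lay above 9, and 18 of the 23 floral and meiotic genes lay at or under 6.32.

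Genes of protein synthesis formed the list with the largest share of high members. Of 34 genes for ribosomal proteins and translation factors, 33 were high (median percentile 98.4), and the exception, RPS10-1, read 9.29, 9.37 and 9.44. The 14-3-3 proteins, adaptors that bind phosphorylated partners, were high in 6 of 7 cases, from GF14F at 13.25 to GF14D at 11.42, with GF14G at 8.31. Housekeeping and cytoskeleton genes were high in 24 of 34 cases. All 5 ubiquitin genes were high (10.87 to 12.82), as were 7 of 8 beta-tubulins, led by TUBB5 at 12.23, and 3 of 4 actins, led by ACT7 at 13.06. The glyceraldehyde phosphate dehydrogenases split, with GAPC1 at 13.60 and GAPC2 at 6.21, below the reporter level.

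Metallothioneins, small cysteine-rich proteins that bind metals, were high in 6 of 7 cases. MT-1 read 13.81, 13.94 and 13.84, and MT4C, the 1 in the middle band, read 4.92, 5.46 and 5.11. Of 37 antioxidant and redox genes, 22 were high and none was near the floor. The ascorbate peroxidases APX2 and APX1 averaged 13.45 and 12.40, the thioredoxin TRXH 13.32, and the copper-zinc superoxide dismutases SODCC.1, sodCp and SODCC.2 averaged 12.45, 11.70 and 11.63. The class III peroxidase PRX74 lay lower and apart between pools, at 7.73, 6.16 and 6.48. Phytocystatins, inhibitors of cysteine proteases, ran across the scale, with OC-I and OC-III at 13.71 and 13.08 but OC-VI and OC-IV at 4.49 and 3.71.

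The photoreceptor list held 6 genes, and its 5 receptors were all high. The phototropins PHOT1A and PHOT2, blue light receptors, averaged 12.43 and 12.20, and the phytochromes PHYA, phyC and PhyB averaged 10.59, 10.45 and 10.26. CPT1, which acts in coleoptile phototropism, averaged 3.26, near the floor. All 5 receptors were placed by probe sets that can match several transcripts. Among 12 clock and flowering time genes 6 were high, headed by GI at 13.04, 13.05 and 13.08. The pseudo-response regulators PRR95, PRR73 and PRR37 averaged 12.77, 12.62 and 11.30, and CCA1, a morning-phased clock gene, 11.24. Of the flowering time genes SE5 averaged 12.36, Ehd4 9.93, Ehd3 9.01 and Hd1 5.80, and Hd3a, which encodes a florigen, read 3.94, 3.82 and 3.64. Many clock and flowering genes cycle over the day, so these levels hold for the unstated hour of sampling.

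Nitrogen genes of the same family could lie far apart. The chloroplast enzymes of ammonium assimilation Fd-GOGAT and GLN2 averaged 12.95 and 12.83, and the cytosolic glutamine synthetase GLN1-1 averaged 12.55, while GLN1-3 averaged 5.19. Nitrate reductase NIA1 averaged 11.95. Of 8 ammonium transporters, AMT1-1 averaged 12.17 and AMT2-1 10.48, and AMT2-2, the lowest, read 4.28, 4.21 and 4.05. For phosphate, PHT1-1 averaged 12.08 and PHT1-6 3.25, and of the SPX proteins, which sense phosphate status, SPX4, SPX2 and SPX1 averaged 9.73, 9.39 and 9.11 against 4.18 and 3.84 for SPX5 and SPX3. Potassium transporters ran between HAK5 at 13.41 and HAK26 at 3.22. Of 24 listed potassium and sodium genes 6 were high, against 24.8% of all genes and 36.5% of named genes.

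The aquaporins spread over the whole scale, with 11 of 25 high, 12 in the middle band and 2 near the floor. Those of the plasma membrane, the PIP proteins, were high in 6 of 10 cases, led by PIP1-2 at 13.43, PIP1-1 at 13.19 and PIP2-1 at 13.10. Those of the tonoplast, the TIP proteins, were high in 3 of 8 cases, TIP1-1, TIP4-1 and TIP2-2. Over all genes the high share was 24.8%, and over named genes 36.5%. The seed-associated TIP3-1 read 5.51, 5.05 and 5.08. NIP3-1 and NIP4-1 averaged 3.29 and 3.68. The pools stood farthest apart among the high aquaporins for PIP2-6, at 12.44, 11.83 and 11.86, and for TIP2-2, at 13.65, 13.13 and 13.19. The list median of 87.2 fell to 70.1 when probe sets that can match several transcripts were left out.

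Of 60 sugar and starch genes 19 were high, 31 were in the middle band and 10 near the floor. The high share was 31.7%, against 24.8% over all genes and 36.5% over named genes. Sucrose synthases Sus2, SUS4 and SUS1 averaged 12.93, 11.64 and 11.48, but SUS3 5.98. Of the SWEET sugar exporters SWEET4 averaged 11.18, and SWEET12 read 3.68, 3.84 and 3.59. The sucrose transporters SUT1 and SUT2 were high (11.05 and 10.91) and SUT5 was low (5.12). Of 5 alpha-amylases, enzymes known for starch breakdown in germinating grain, none was high and 3 were near the floor, with AMY1.1 at 3.04, 2.87 and 3.05.

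Heat shock proteins and heat stress factors held 11 high genes of 50, against 24.8% of all genes and 36.5% of named genes. The subfamilies stood in different places. The 3 HSP81 genes, chaperones of the HSP90 class, were all high at 14.05, 13.28 and 12.73. Among 19 small heat shock proteins 3 were high, 13 in the middle band and 3 near the floor. HSP18.8, HSP17.9B and HSP17.9A averaged 12.38, 12.24 and 10.19, and HSP26.7 and HSP23.2 averaged 3.76 and 3.07. Of 18 heat stress factors, transcription factors that switch on these chaperones, 1 was high, HSFA1 at 10.10, on the border of that band, and the other 17 were in the middle band. The dehydrins and LEA proteins, which accumulate in drying tissue, gave no high gene among 8, with Dhn1 the highest at 9.99.

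Of 17 TIFY and JAZ genes, repressors of the jasmonate response and their relatives, 9 were high, with a median percentile of 91.0. TIFY10B and TIFY3 averaged 12.66 and 12.65, while TIFY8 averaged 3.74. Of 8 DREB factors, regulators of cold and drought genes, 2 were high. That is 25%, against 24.8% over all genes and 36.5% over named genes. The median percentile of the DREB list was 59.1. DREB1B read 11.06, 11.31 and 11.50 and DREB1A 10.05, 10.30 and 10.53, whereas DREB2D averaged 2.96. WRKY71 was the 1 high gene of 6 WRKY factors (11.80, 11.89 and 12.12), and the other 5 lay between 8.75 and 10.02. Among 8 NAC factors ONAC067, ONAC048 and ONAC071 were high at 11.58, 11.34 and 10.65. The high share was 24.8% over all genes and 36.5% over named genes.

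In the abscisic acid list 10 of 17 genes were high, among them the zeaxanthin epoxidase ABA1 (11.42) and 7 SAPK kinases, led by SAPK4 at 10.95. The seed regulator VP1 was the lowest of that list at 4.85. MAP kinases were high in 10 of 16 cases, with MPK8 at 11.35, and none was near the floor. Of the calcium sensors all 3 calmodulins were high and 13 of 23 calmodulin-like proteins were, led by CML27 at 11.93. Calcium-dependent kinases ranged from CPK13 at 11.93 to CPK6 at 3.66, and the CIPK kinases from CIPK1 at 12.60 to CIPK30 at 3.63. Among 46 defence genes 14 were high, against 24.8% of all genes and 36.5% of named genes. The high defence genes included the lipid transfer gene LTP, the trypsin inhibitor RBBI3.3, the pathogenesis-related gene PBZ1 (12.73, 13.12 and 12.91) and the lipoxygenase LOX2.1 (12.02). The chitinases Cht7 and Cht9 averaged 3.95 and 3.85.

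Of 62 auxin genes 15 were high and 6 near the floor. The high share was 24.2%, against 24.8% over all genes and 36.5% over named genes. The IAA repressors reached from IAA17 at 13.31 and IAA3 at 12.72 to IAA14 and IAA16 at 3.95 and 3.94. The auxin response factors ARF23 and ARF4 averaged 11.36 and 11.35, and ARF13 averaged 4.27. No PIN auxin exporter of 5 was high, PIN5A being the highest at 9.71. In the other hormone lists EIL1A, a transcription factor of ethylene signalling, averaged 13.25 and HTD2, the strigolactone receptor, 13.28. The cytokinin receptors HK5 and HK3 averaged 11.29 and 10.89, while the response regulator RR41 read 2.80, 2.80 and 2.85, the lowest of all named genes.

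Cell division genes lay in the middle band for the most part, 48 of 58, with 5 high and 5 near the floor. None of 7 A- and B-type cyclins, which drive entry into S phase and mitosis, was high, and only CYCA1-4 (8.38) lay above the reporter level. The MCM helicase subunits and the origin recognition proteins gave no high gene among 8 and 5, with MCM3 at 4.43 and ORC3 at 3.29. MCM9, MCM2 and ORC2, at 8.09, 7.11 and 8.26, lay above the reporter level, and the others lay under it. The cyclin-dependent kinases stood higher, with CDKG-2, CDKF-1 and CDKE-1 in the high band and CDKB2, a kinase of mitotic cells, at 6.09, 6.06 and 5.97. Kinesins, motors of the microtubule cytoskeleton, gave 1 high gene of 34, KIN13A at 10.26.

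The wall-building families were uneven. Of 9 cellulose synthases 5 were high, CESA3 at 12.82, CESA8 at 11.64, CESA1 at 11.57, CESA4 at 10.94 and CESA7 at 10.76, and none was near the floor. Of the 20 cellulose synthase-like genes 3 were high, CSLE1, CSLH1 and CSLF6, and CSLF7 averaged 3.03. Expansins, which loosen walls, had a median percentile of 51.5, with EXPB3, EXLA1, EXPB2 and EXPA2 high and 15 of 29 at or under the reporter level.

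MADS-box genes had the lowest median percentile of the 60 lists, 30.6. Of 31 MADS-box genes 2 were high, 18 were in the middle band and 11 near the floor, and 22 read at or under 6.32. The high members were MADS22, at 11.97, 12.06 and 12.06, and MADS56, at 11.10, 11.23 and 11.24. MADS22, MADS55 (9.39) and mads47 (8.87) belong to the group of SVP-like factors, and MADS56 and MADS50 (9.59) to that of SOC1-like factors, which act in flowering time and vegetative tissue. Among those of the spikelet and floral organs MADS34, MADS3 and MADS5 averaged 2.99, 3.39 and 3.41. YABBY genes gave none high of 7 (median percentile 42.3), with YAB2 at 9.62 and OsYABBY5 at 3.73.

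Of 49 homeobox genes 9 were high and 9 near the floor, with a median percentile of 66.1. Hox16 averaged 13.61 and HOS59 13.53. The ROC genes, factors of the epidermis, were high in 3 of 8 cases, against 24.8% of all genes and 36.5% of named genes. None of the 7 WOX genes, which act in meristems and organ initiation, was high. OSH1, a shoot meristem gene, read 3.77, 3.82 and 3.54. SPL factors, only some of which are targets of a microRNA in the phase change of shoots, were high in 5 of 11 cases. SPL15 led at 11.74, while SPL14 averaged 4.47.

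**Figure D3:**
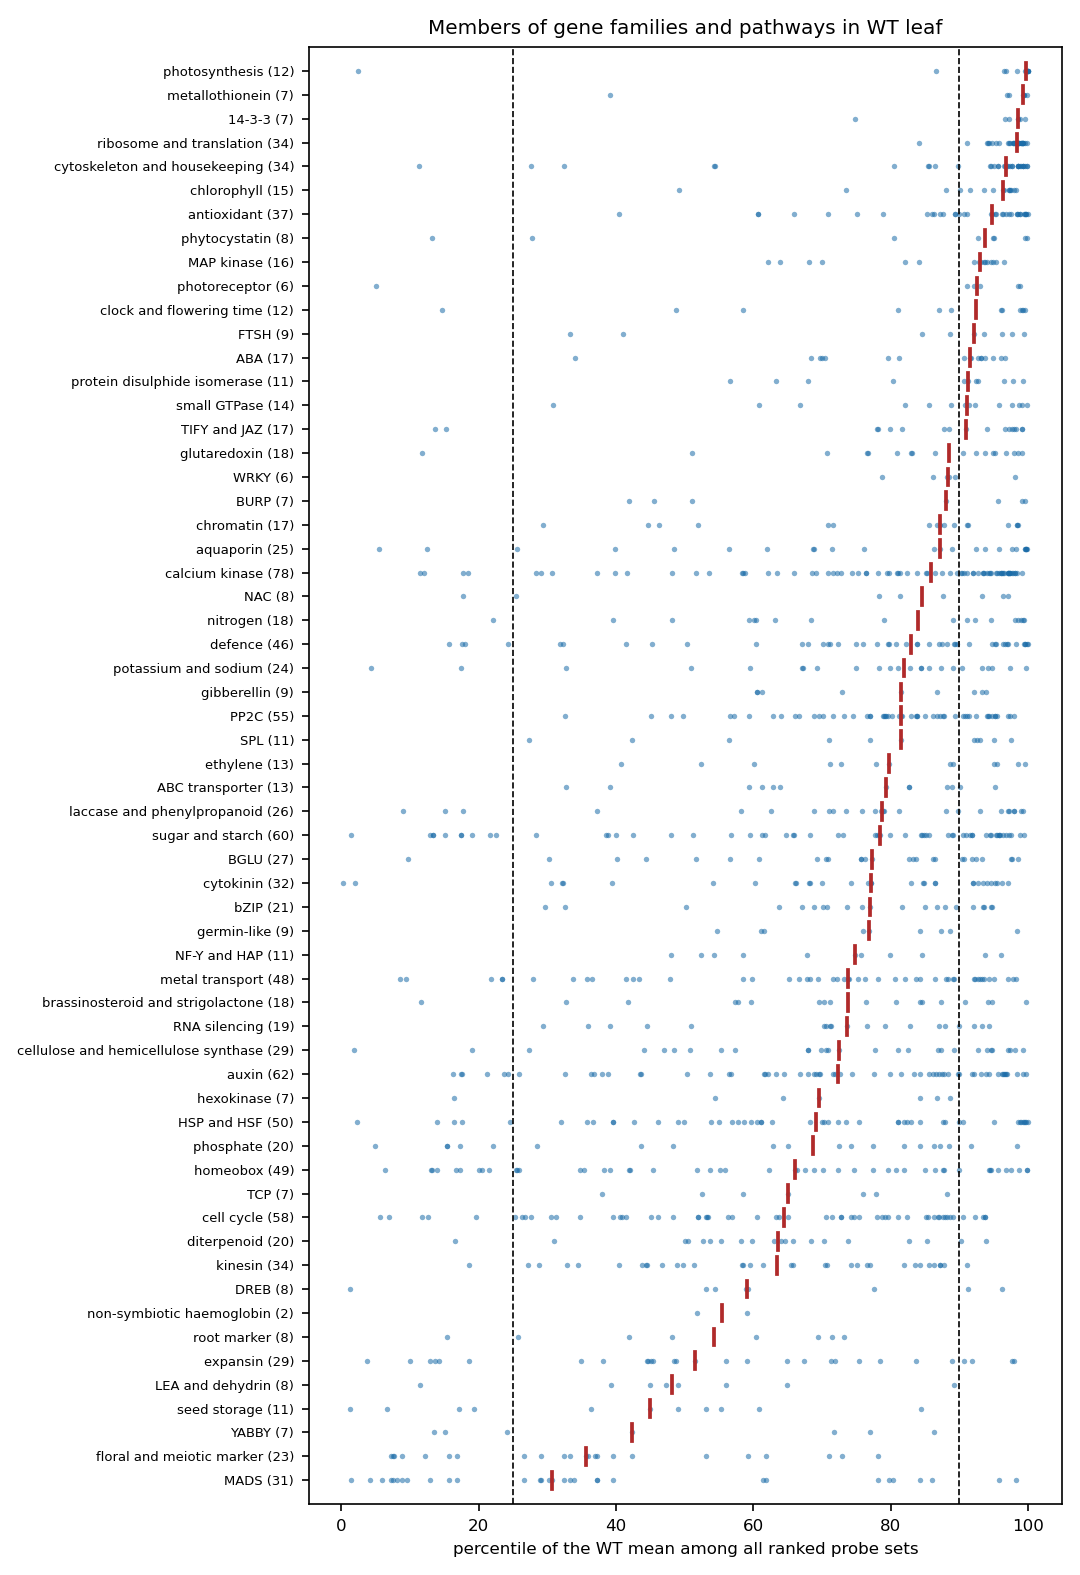
Percentile of each list member's WT mean among the 57194 ranked probe sets (blue points, 1 per gene; x axis, percentile; red bars, list medians; dashed lines, band limits; gene numbers in brackets). The medians ran between 99.7 for photosynthesis and 30.6 for MADS-box genes, against 78.5 over all genes.

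Over the 60 lists 1308 genes were placed, 434 high, 767 in the middle band and 107 near the floor. For 23.2% of them the placing probe set was of a type that can match several transcripts.

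The spread between the pools was examined next. A range of at least 1 between the highest and the lowest pool, which is at least 2-fold, was found for 174 probe sets, 0.304% of the total. Of the 174, 124 had a listed gene, and these came to 119 genes. A range of at least 2 was found for 15, and the largest range was 3.59. Pool 1 was the highest of the 3 in 148 of the 174 (85.1%), pool 2 in 10 and pool 3 in 16. Without pool 1 the count fell to 17, against 114 without pool 2 and 124 without pool 3. The probe sets that varied most were thus mainly those that read higher in pool 1. Over all genes above the lower quartile the direction was different, since pool 1 was highest for 5038 of 16663 and lowest for 7893. The array controls also differed somewhat. The 18S ribosomal RNA probe set read 9.78, 10.61 and 10.16 in pools 1, 2 and 3, and the difference between the 3' and 5' probe sets of GAPDH, a measure of RNA integrity, was 0.99, 0.89 and 0.95. Their part in the spread was not tested.

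Among named genes above the lower quartile the largest range was that of LEA19, a late embryogenesis abundant protein of drought response, at 7.22, 6.27 and 8.18, so that pool 3 was highest and pool 2 lowest. NAS1 and NAS2, nicotianamine synthases of iron nutrition, read 5.96, 4.81 and 4.09 and 6.25, 5.58 and 5.39. Both were highest in pool 1, and their values lay around or under the reporter level of 6.32, where readings are least informative. OsCel9E, an endoglucanase, read 6.45, 5.19 and 4.72 with the same order, and its mean of 5.45 also lay under the reporter level.

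The expansin EXPA7 read 8.14, 6.88 and 6.66 and EXPB4, a further expansin, 10.52, 9.71 and 9.60. MAN1, an endo-mannanase, read 9.39, 8.38 and 8.41, and the peroxidase PRX74 is given above. Pool 1 stood apart in these genes, with pools 2 and 3 closer to each other. The germin-like protein GLP110 read 12.96, 11.84 and 11.53 and GER4, of the same family, 7.04, 5.97 and 5.74. The mean of GER4, 6.25, lay under the reporter level of 6.32. The lipid transfer protein LTP110-A read 12.35, 11.43 and 10.97, and BURP2, of the BURP domain family, 10.61, 9.20 and 9.69. These genes ranged from the high band to the middle band, so the excess of pool 1 was not limited to low readings.

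The sugar exporter SWEET11 read 8.99, 7.94 and 7.47 and the sucrose synthase SUS5 7.45, 6.42 and 6.66, and both were highest in pool 1. ACO1, which makes ethylene, read 9.33, 8.13 and 8.55, and the protein kinase NEK3 8.48, 7.47 and 7.60. The glutaredoxin GRXC1 read 8.45, 7.30 and 7.83 and MIF3, a small zinc finger protein, 6.47, 5.77 and 5.23. The mean of MIF3, 5.82, lay under the reporter level of 6.32. The aspartic protease AP25 averaged 9.36 with a range of 1.12 and was also highest in pool 1.

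A smaller set of named genes was highest in another pool. Those highest in pool 2 included 3 genes of diterpenoid phytoalexin synthesis. The diterpene cyclase CPS2 read 5.43, 7.13 and 5.71, DTC1 5.48, 6.39 and 5.83, and the P450 enzyme CYP701A8 6.68, 7.85 and 7.03. The means of CPS2 and DTC1, 6.09 and 5.90, lay under the reporter level of 6.32. The vacuolar iron transporter VIT2 read 8.59, 9.45 and 8.84. In pool 3 the jasmonate repressor JAZ13 was highest, at 8.72, 8.92 and 9.63, as was the peroxygenase PXG, at 7.43, 7.28 and 8.13.

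**Figure D4:**
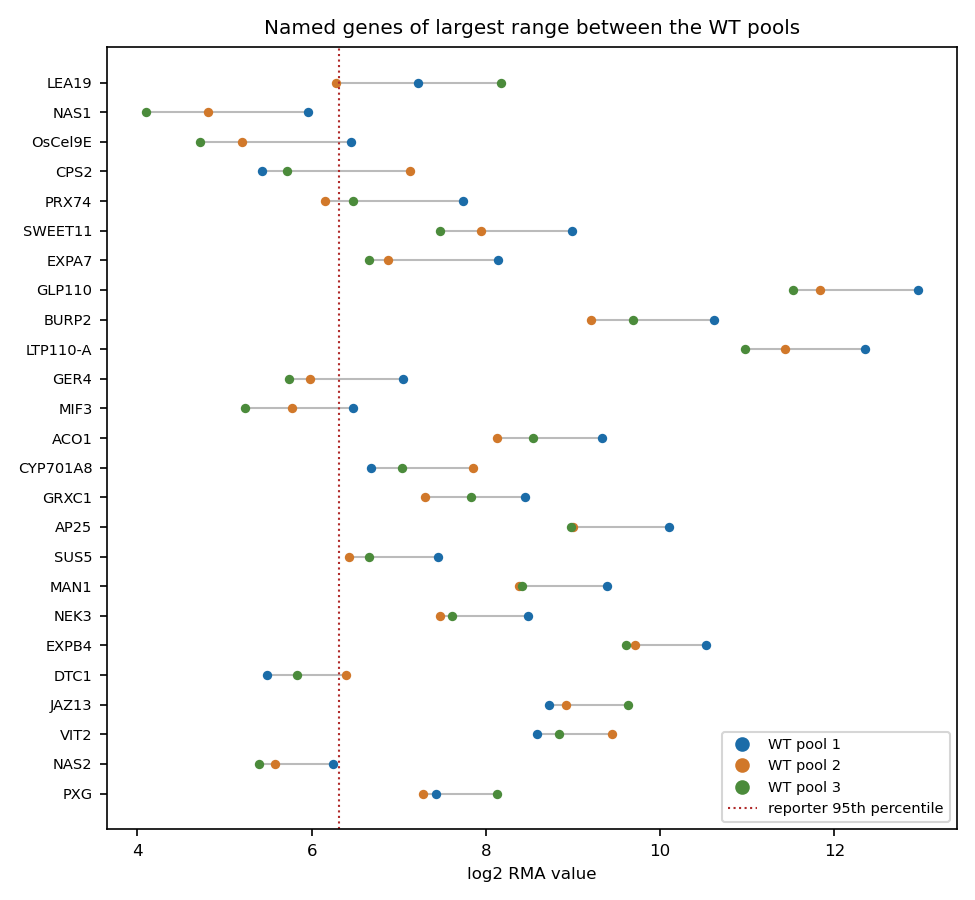
Values of the 3 WT pools (coloured points; x axis, log2 RMA value) for the 25 named genes of largest range above the lower quartile, with the reporter 95th percentile of 6.32 dotted. Pool 1 was the highest for most of these genes, and for LEA19, JAZ13 and PXG it was pool 3.

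The largest ranges of all belonged to genes without a name. LOC4323946 on chromosome 1 read 7.62, 4.03 and 4.85, and LOC4343628 on chromosome 7 read 8.22, 4.94 and 4.89. In both, pool 1 alone lay above the reporter level. A run of 5 genes close together on chromosome 10, picked out after its values were seen, also varied together. LOC4348120 read 13.01, 11.85 and 11.40, LOC4348121 12.78, 11.48 and 10.87, LOC4348122 11.81, 10.09 and 9.41, LOC4348123 12.44, 10.98 and 10.57, and LOC4348119 5.93, 3.60 and 3.25. Only probe sets with a range of at least 1 were looked at in these genes. Pool 1 was highest and pool 3 lowest in each of these 7 probe sets. Pool 1 was also highest in 148 of all 174 probe sets with such a range. The gene order is that of assembly ASM3414082v1, and whether the probes of neighbouring genes share sequence was not analysed here, so the 5 may not be separate measurements.

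The pool with the highest value was then counted in each list, for members above the lower quartile. Over all genes the shares were 30.2% for pool 1, 31.0% for pool 2 and 35.8% for pool 3, and in the rest the highest value was shared. The lowest value was that of pool 1 for 7893 of the 16663 genes above the lower quartile. Pool 1 was highest for 9 of 9 cellulose synthases, 8 of 8 beta-tubulins, 6 of 7 BURP genes, 5 of 7 TCP factors, which regulate organ growth, 14 of 23 expansins and 20 of 33 kinesins. It was also highest for 16 of 23 IAA repressors and 7 of 10 SWEET genes. The differences were small for most of these genes. CESA8 read 11.85, 11.61 and 11.47, CESA5 10.02, 9.56 and 9.48, TUBB4 11.89, 11.44 and 11.34, TUBB8 11.54, 11.03 and 10.88, and IAA31 8.07, 7.27 and 7.35.

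Metallothioneins were highest in pool 2 in 6 of 7 cases and lowest in pool 1 in 7 of 7. Of 19 diterpenoid genes 13 were highest in pool 2, among them CYP71Z7 at 9.67, 10.52 and 10.21, and of 43 metal transport genes 22 were, including 8 of 11 YSL transporters. For the YSL genes the steps were slight, as for YSL16 at 10.33, 10.57 and 10.54.

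Pool 3 was highest for 11 of 15 TIFY and JAZ genes, 6 of 7 NAC factors, 5 of 7 DREB factors, 8 of 9 FTSH proteases, which maintain thylakoid and mitochondrial membranes, and 13 of 23 calmodulin-like proteins. TIFY11B read 11.69, 11.85 and 12.13, TIFY11A 9.63, 9.59 and 10.17, ONAC048 11.19, 11.35 and 11.50, and DREB1G 6.06, 5.81 and 6.52. Over all genes above the lower quartile pool 1 was lowest for 7893 of 16663. All 6 WRKY factors and all 9 FTSH genes were lowest in pool 1, though the steps were small, as for FTSH2 (12.96, 13.01 and 13.01). Counted over members above the reporter level only, a choice made after the values were seen, the direction was the same for the lists of expansins (11 of 14 in pool 1), kinesins (16 of 21 in pool 1), diterpenoid genes (8 of 13 in pool 2) and NAC factors (6 of 6 in pool 3). Members of a list were measured on the same arrays, so such counts describe 3 pools and carry no test.

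**Figure D5:**
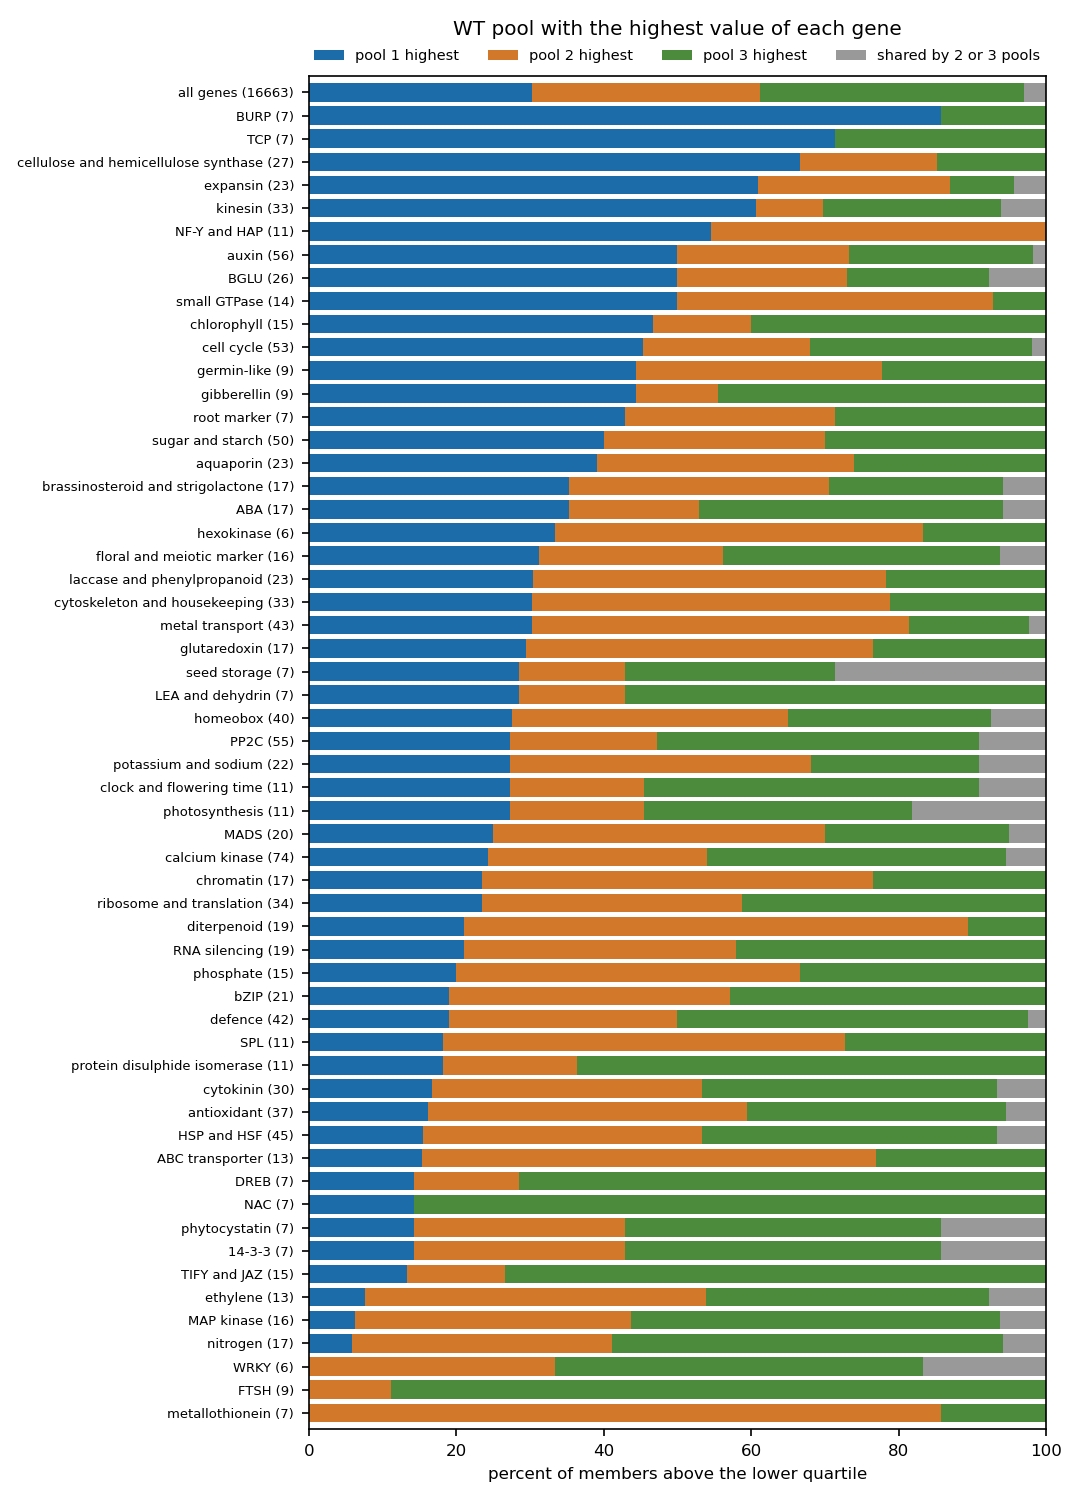
Share of each list's members above the lower quartile (x axis, percent) for which WT pool 1, 2 or 3 gave the highest value, with ties in grey and numbers of genes in brackets. Against 30.2% in pool 1 over all genes, BURP, TCP, cellulose synthase, expansin and kinesin lists leaned to pool 1, metallothionein and diterpenoid lists to pool 2, and FTSH, NAC, TIFY and DREB lists to pool 3.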

How the data were processed

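RNA of 9 samples was hybridised to Affymetrix rice arrays, and the 3 WT arrays were described here. The authors deposited 1 table of log2 values, 1 per probe set and array, made with RMA (version not given in the sources used here), which shares 1 normalization over all 9 arrays and compresses low readings. Names came from the platform annotation, with symbols and synonyms of a RefSeq gene table of assembly ASM3414082v1. Means, percentiles and ranges were computed with Python 3.11.15, pandas 2.3.3 and numpy 2.4.6, and moderated SDs with limma 3.58.1 in R 4.3.3. The steps were run on simulated data in which every probe set had the same SD, the median of 0.0817. Real SDs differ between probe sets, so that run cannot show how the range rule behaves on these arrays. No expression level was compared between groups and no p-value was computed. Only a count of spread was set beside that of the other groups. A single array per pool and 3 pools limit the precision.

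The members and lists were chosen with earlier results of these data known, and some lists were written after the annotation had been seen. Genes seen to match a list by symbol while having another role were removed, and others may remain. Named genes were drawn by rule from OsHMGB707, the 20 named genes of highest mean, up to 4 members of highest and 3 of lowest mean and the member of largest range of each list, and the 25 named genes of largest range, and not every list is described gene by gene. A few further members stand as examples within their families and were chosen after their values were seen. Alternatives changed the band limits, the probe set that places a gene, the probe set types, the pools and the measure of spread. Promoter and probe sequences were not analysed here.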

Additional observations from a re-analysis of the deposited data

How the results depend on the processing

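No paired analysis was possible because no expression level was compared between groups and no result comes from a test. With high set to the top 5%, 2183 genes and 274 list genes were high, and with the top 20% 8405 and 657. With the floor set at the reporter 95th percentile, 3832 genes and 317 list genes lay at or under it. Placing genes by the median of their probe sets gave median percentiles of 93.6 for chlorophyll, 99.0 for photosynthesis and 36.3 for seed storage, against 96.4, 99.7 and 44.9, and 3733 genes and 366 list genes high, against 4432 and 434. Without probe sets of several transcripts 3507 genes and 319 list genes were high, the medians were 91.6 for chlorophyll, 96.5 for photosynthesis, 36.4 for floral and 55.7 for root markers, and 7 of 60 lists shifted by over 10 points, the photoreceptors to 43.6, ABC transporters to 62.8, BURP to 73.3, YABBY to 24.2, aquaporins to 70.1, phytocystatins to 80.5 and sugar and starch to 68.3. Genes without another probe set dropped out of this setting, which left 1102 of the 1308 list genes. Among the receptors placed by such probe sets only PHYA had a second one, so the 43.6 rests on PHYA and CPT1 alone. Leaving out each replicate in turn gave floral medians of 34.6 to 35.9 and 17 to 124 probe sets with a range of at least 1, the 17 without replicate 1. A range of at least 2, a limit added after the data were seen, left 15 probe sets, 73.3% of them highest in pool 1. Of the 25 named genes of largest range, 24, 22 and 24 were shared with rankings by plain SD, by SD over the running median and by moderated SD. The alternative on a replicate block was not run for lack of a comparison. Levels near or under the reporter readings cannot show whether a gene is expressed.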

Other observations

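Some lists not described above also held genes at both ends of the WT scale. Among 13 ethylene genes the acireductone dioxygenase ARD4 averaged 12.25 and the receptor ERS1 11.12, while the receptor ETR4 averaged 5.27. Of 17 chromatin genes 6 were high, against 24.8% of all genes and 36.5% of named genes. The high ones included the histones H2B.5, H2B.6 and H2B.7 at 12.19, 12.10 and 12.08. The DNA methyltransferases MET1-2, MET1-1 and CMT3 averaged 6.04, 5.63 and 5.53, all under the reporter level of 6.32. Of 19 RNA silencing genes AGO4A, AGO1A and AGO4B were high at 10.84, 10.64 and 10.45, and the germline Argonaute MEL1 averaged 4.96. Glutaredoxins were high in 9 of 18 cases, from GRXC6 at 12.70, with GRXC3 at 3.64.

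The same count of spread was made in the other groups of the series, 3 arrays each. A range of at least 1 was found for 174 probe sets in WT, 346 (0.605% of all probe sets) in OE and 842 (1.47%) in RNAi. Of the WT probe sets 41 (23.6%) also had such a range in OE, which is 11.8% of those in OE, and 82 (47.1%) in RNAi, which is 9.74% of those in RNAi. The difference between the groups was not tested.

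TIFY5, a relative of the jasmonate repressors, lay near the floor and yet read 3.11, 4.51 and 3.85, the largest range in its list. SWEET15 had a range of 1.13 at a mean of 4.21. Both lay under the reporter level in every pool.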
